A study of Mus musculus with 6 samples.

Results

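The 3 cystatin genes Cst3, Cst7 and Cstb were examined in the single-cell transcriptomes of the mouse spinal cord, as 3 of the 18792 genes of the deposited table and across all of its 13614 cells. They were chosen by name, because each encodes an inhibitor of cysteine cathepsins, and were described in gated cell types and, among the 11481 myeloid cells, by the value of Apoe and by homeostatic microglial markers. The 6 libraries came from non-immunized WT mice (1 library), non-immunized Nd6 mice (1 library), WT mice with EAE (2 libraries) and Nd6 mice with EAE (2 libraries). Nd6 mice carry the P25L change in the mitochondrially encoded complex I subunit ND6 in every cell, and EAE is an autoimmune inflammation of the CNS that was induced with a myelin peptide in female mice aged 8 to 20 weeks and sampled 30 days after immunization. In all groups actinomycin D and triptolide, inhibitors of transcription, were given by perfusion before the cord was dissociated. Nothing in the sources used here ties a cell to a library. All cells were therefore read as 1 pooled sample without any comparison of genotypes or of EAE with control, and the results carry no p-values.

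Cystatins bind the active site cleft of papain-like proteases and hold them inactive. Cst3 encodes cystatin C, a secreted inhibitor found in cerebrospinal fluid and made by microglia and astrocytes. Cst7 encodes cystatin F, which is kept within the endosomal and lysosomal system of immune cells and is known as a gene of disease-associated microglia and of cytotoxic lymphocytes. Cstb encodes cystatin B, a small inhibitor of the cytosol and nucleus, and its loss causes a progressive myoclonus epilepsy in humans. Their targets, the cathepsins, degrade proteins in lysosomes, and cathepsin S (Ctss) also trims the invariant chain of MHC class II in antigen-presenting cells.

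In GRCm38.p6 Cst3 lies on the minus strand of chromosome 2 (chr2:148871722-148875512) and Cst7 on the plus strand of the same chromosome (chr2:150570415-150578944), with 1695 kb and 25 RefSeq genes between them. Cstb lies on the plus strand of chromosome 10 (chr10:78425670-78427622). The 250 bases before the RefSeq start are shown for Cst3 (chr2:148875513-148875762, minus strand) and Cst7 (chr2:150570165-150570414, plus strand). These 2 windows were chosen because their genes ran in opposite directions across the pooled myeloid cells. Both are written 5′ to 3′ on the strand of the gene, with each CpG in capitals.
Cst3: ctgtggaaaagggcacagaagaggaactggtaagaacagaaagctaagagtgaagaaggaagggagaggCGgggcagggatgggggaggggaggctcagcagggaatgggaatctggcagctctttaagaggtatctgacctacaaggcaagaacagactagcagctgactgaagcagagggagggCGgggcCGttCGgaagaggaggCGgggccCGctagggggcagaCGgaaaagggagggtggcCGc
Cst7: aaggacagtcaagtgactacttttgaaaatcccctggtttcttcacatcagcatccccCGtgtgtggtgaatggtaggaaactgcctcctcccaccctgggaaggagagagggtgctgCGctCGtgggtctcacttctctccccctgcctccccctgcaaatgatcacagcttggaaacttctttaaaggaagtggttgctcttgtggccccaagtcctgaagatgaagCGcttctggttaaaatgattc
The Cst3 window held 8 CpG and 59.6% G and C, and 57.0% of the 32851 RefSeq promoter windows of this length held fewer CpG. The Cst7 window held 4 CpG and 51.6% G and C, and 37.8% of the windows held fewer. GGGCGG, searched on both strands, was found 1 time before Cst3 and not before Cst7, against 32.7% of all windows. GAGGAA, also searched on both strands, was found 1 time before Cst3, in a different place, and not before Cst7, against 23.3% of all windows. Neither window held TATAAA on the strand of the gene (7.59% of all windows) or CACGTG (6.02%). These are descriptions of letters, and Cstb has no entry in the promoter table.

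The deposited values are whole numbers with a median total of 962 per cell, with 138 to 1287 genes above 0 (median 547). They were taken as a score and not as molecule counts, and every level below is a mean of these values per cell. Each cell's name ends in 1 of 6 numbers, by which the cells were divided into 6 sets lettered A to F from the largest (4633 cells) to the smallest (809 cells). In sets D and E the median Apoe value of myeloid cells was 0 in each, against 106 in set A, 33 in B, 96 in C and 59 in F. These sets stand apart from the rest in all 3 cystatins, so the main contrasts are also given within single sets or without these sets. Across sets, 18 barcodes occurred 2 times.

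Among the gated types of at least 20 cells, Cst7 and Cstb had their highest mean in myeloid cells, and Cst3 stood high in both myeloid cells and astrocytes. A cell was called myeloid where C1qa, Ctss and Tyrobp summed to at least 8, and of another lineage where at least 3 of 6 markers of that lineage were above 0 with the myeloid sum below 8. By this rule 10560 cells were myeloid only, 735 belonged to another lineage, 921 met both gates (8.02% of the cells in the myeloid gate, 538 of them in set A) and 1398 met neither. The 6 other lineages with at least 20 cells were oligodendrocytes (233), endothelial cells (210), ependymal cells (111), astrocytes (51), pericytes or smooth muscle cells (45) and T cells (38). In each of them the mean of all 6 markers was at least 2-fold that of all cells outside the type, which the gate on these same markers favours in advance.

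Cst3 was above 0 in 99.8% of myeloid cells, with a mean of 23.0, a median of 11 and 10th and 90th percentiles of 5 and 65. Astrocytes followed with a mean of 15.1 and a median of 13, and all 51 cells were above 0 (exact 95% interval of the share 93.02 to 100%). So the median astrocyte was above the median myeloid cell, while the myeloid mean was carried by a long upper tail. In set A mean Cst3 was 13.7 in 16 astrocytes against 11.1 in myeloid cells, and in set B 13.3 in 15 astrocytes against 11.1, while in sets C to F astrocytes were lower. Without sets D and E it was 12.8 in 38 astrocytes and 12.3 in 8684 myeloid cells, so the first place of myeloid cells for Cst3 rested on those sets, while for Cst7 (0.619) and Cstb (0.648) myeloid cells were highest without them too. Mean Cst3 was 6.33 in pericytes or smooth muscle cells, 4.23 in endothelial cells, 3.67 in oligodendrocytes and 3.24 in ependymal cells. T cells were lowest, at 1.45, with 47.4% of cells above 0 (31.0 to 64.2%). These intervals cover counting error only, and the share intervals of the 4 middle types overlap their neighbours' in this order.

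Cst7 was above 0 in 34.9% of myeloid cells (34.0 to 35.8%), with a mean of 0.511. Outside the myeloid gate its share ran from 4.50% of ependymal cells (1.48 to 10.2%) to 13.2% of T cells (4.41 to 28.1%), which was 5 of 38 cells. T cells include cytotoxic cells that are known to use Cst7, but their interval overlapped those of astrocytes (11.8%), pericytes or smooth muscle cells (11.1%) and oligodendrocytes (9.01%). Cstb was above 0 in 37.0% of myeloid cells (36.1 to 37.9%), with a mean of 0.556. Oligodendrocytes came next with 18.0% of cells (13.3 to 23.6%) and a mean of 0.236, and the other 5 lineages lay between 10.5% and 14.3%. The 12 neutrophil-gated cells, too few for the ranking, had a mean Cstb of 1.08 with 6 cells above 0, and no cell with Cst7, where 0 of 12 cells allows a share of up to 25%.

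**Figure D1:**
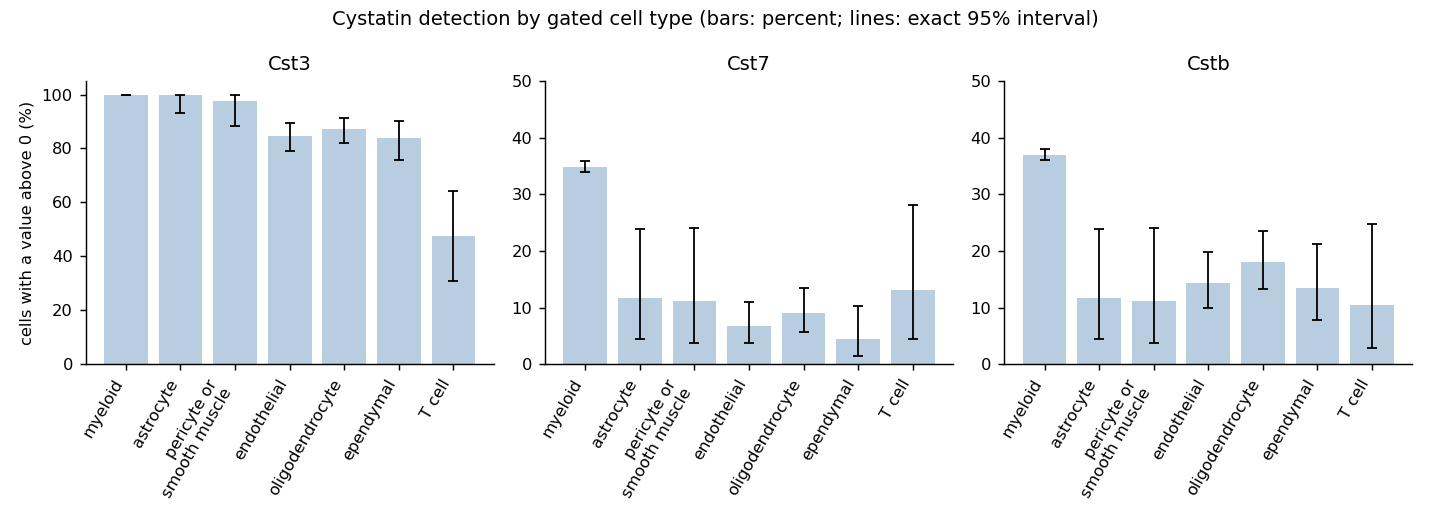
Percent of cells with a value above 0 (y axis, its range differs between panels) for Cst3, Cst7 and Cstb in the 7 gated cell types (x axis), with bars for the percent and lines for the exact 95% binomial interval. Cst3 was above 0 in nearly all myeloid cells and astrocytes, while for Cst7 and Cstb the myeloid bars (34.9% and 37.0%) stand above every other type.

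Against the 735 cells of other lineages, the 3 cystatins were 5.07-fold (Cst3), 5.22-fold (Cst7) and 2.92-fold (Cstb) higher in myeloid cells. Of the 2071 genes with a mean of at least 0.1 in either group, 13.5% were at least 2-fold higher and 31.2% at least 2-fold lower in myeloid cells. For Cst3 the ratio was above 1 in 6 of 6 sets, from 2.80 in set A to 13.5 in set E. For Cst7 it was 3.61 in set A, 2.72 in B, 5.84 in C and 10.2 in F. In sets D and E no cell of another lineage had Cst7, 0 of 102 and 0 of 168, which allows shares of up to 2.94% and 1.79%. For Cstb the ratio was 3.99 in A, 2.41 in B, 2.45 in C, 1.92 in F, 1.34 in D and 0.966 in E, so the myeloid excess of Cstb was not seen in set E.

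Genes that define myeloid cells were also found at low level in the other types: C1qa was above 0 in 40.5% of endothelial cells and 28.9% of T cells. Median genes above 0 were 706 and 750.5 in these types and 548 in myeloid cells. In each of the 6 other types of at least 20 cells the shares of Cst7 and Cstb were below that of C1qa, and whether they are expression or free RNA was not tested. To set the cystatins beside these genes, each mean was divided by the summed mean of 3 other myeloid genes (C1qb, C1qc and Fcer1g) in the same cells. For Cst3 the ratio was 3.83 in astrocytes, 3.38 in endothelial cells, 3.19 in ependymal cells, 3.10 in pericytes or smooth muscle cells and 1.61 in oligodendrocytes, against 1.88 in myeloid cells and 0.948 in T cells. In sets A to F it was 3.59, 3.33, 1.57, 9.8, 4.69 and 8.33 in astrocytes, of which each set holds 2 to 16, and 1.63, 1.60, 1.64, 8.54, 11 and 4.04 in endothelial cells. Both were above the myeloid cells in 6 of 6 sets (1.05, 0.913, 1.04, 4.41, 4.56 and 2.19), and endothelial cells were above astrocytes in sets C and E. In oligodendrocytes the ratio was 0.993, 0.865, 1.13, 4.51, 7.31 and 1.76, within 1.5-fold of the myeloid cells of the same set except in set E. Cst3 relative to these 3 genes was thus not higher in astrocytes alone. For Cstb the ratio was 0.0453 in myeloid cells, 0.103 in oligodendrocytes, 0.129 in endothelial cells and 0.150 in ependymal cells, and for Cst7 it was 0.0417 in myeloid cells and 0.121 in T cells. In astrocytes both ratios were 0.0299, below the myeloid ones. In the other 5 types both pooled ratios were above the myeloid ones, but not within every set. For Cst7 the oligodendrocyte ratio was above the myeloid one in sets A and B. It was below it in C (0.028 against 0.051) and 0 in D, E and F. The endothelial ratio of Cst7 was above the myeloid one in A, B and F, below it in C (0.016) and 0 in D and E.

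Within the 11481 cells of the myeloid gate, Cst3 had 3 levels by set. Its mean was 11.1 in set A, 11.1 in B and 10.97 in C, 28.95 in F, and 72.1 in D and 72.2 in E. The 10th percentile of sets D (30) and E (32.9) was above the 90th percentile of sets A (16), B (18) and C (17). Cst7 ran the other way, with a mean of 0.874 in set A, 0.537 in C, 0.413 in B and 0.356 in F, and of 0.0122 in D and 0.0144 in E. Only 19 of the 1964 myeloid cells of sets D and E had a Cst7 value above 0 (0.967%), against 58.2% in set A. Cstb was 0.851 in B, 0.570 in A, 0.448 in F, 0.423 in C, 0.128 in D and 0.129 in E. Sets D and E were thus highest in Cst3 and lowest in Cst7 and Cstb, and set B had the highest Cstb but not the highest Cst7.

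Along the Apoe value, pooled Cst3 declined and Cst7 increased over 5 ranges. Apoe encodes a lipid carrier that microglia raise when they leave the homeostatic state. In cells with Apoe values of 0 to 2 (1761 cells), 3 to 9 (432), 10 to 29 (1426), 30 to 79 (3301) and 80 or more (4561), mean Cst3 was 73.5, 38.0, 16.0, 11.6 and 11.4. Mean Cst7 was 0.00852, 0.167, 0.342, 0.484 and 0.839, and its share of cells went from 0.738% (0.394 to 1.26%) to 56.6% at the ends. Mean Cstb was 0.123, 0.475, 0.607, 0.788 and 0.541, so Cstb was highest in the fourth range and lower in the last. Over the pooled ranges Cst3 changed most below an Apoe value of 30, whereas Cst7 went on increasing above it. Single sets departed from this. From the range of 30 to 79 to that of 80 or more, Cst7 went from 0.647 to 0.511 in set C. Over the same step Cst3 went from 10.2 to 11.3 in set A, from 22.2 to 25.2 in F and from 9.67 to 14.2 in B (29 cells in the last range). Among the sets with at least 20 cells in both ranges, Cst3 fell only in C, from 12.7 to 10.4. In set A, which starts at the range of 10 to 29, Cst3 was 11.3 in that first range too.

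Apoe-high cells (30 or more, 7862 cells) had 5.79-fold less Cst3 than Apoe-low cells (below 10, 2193 cells), 11.5 against 66.5. They had 17.4-fold more Cst7, 0.690 against 0.0397, and 3.35-fold more Cstb, 0.645 against 0.192. Among the 1552 genes tested in this contrast 10.4% were at least 2-fold higher and 13% at least 2-fold lower, and the median log2 ratio was -0.193. Only 10 genes were lower than Cst3, 14 were higher than Cst7 and 87 were higher than Cstb. Apoe-low cells came mostly from 2 sets: 1931 of the 2193 (88.1%) were in sets D and E, while sets A and C held none and sets D and E held 10 and 2 Apoe-high cells. Apoe level and set cannot be told apart in the pooled contrast. Apoe was also found in endothelial cells, at a mean of 21.4 in set A and 30.8 in C against 0.833 in D and 0.814 in E, and its part in the Apoe values of myeloid cells was not tested.

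**Figure D2:**
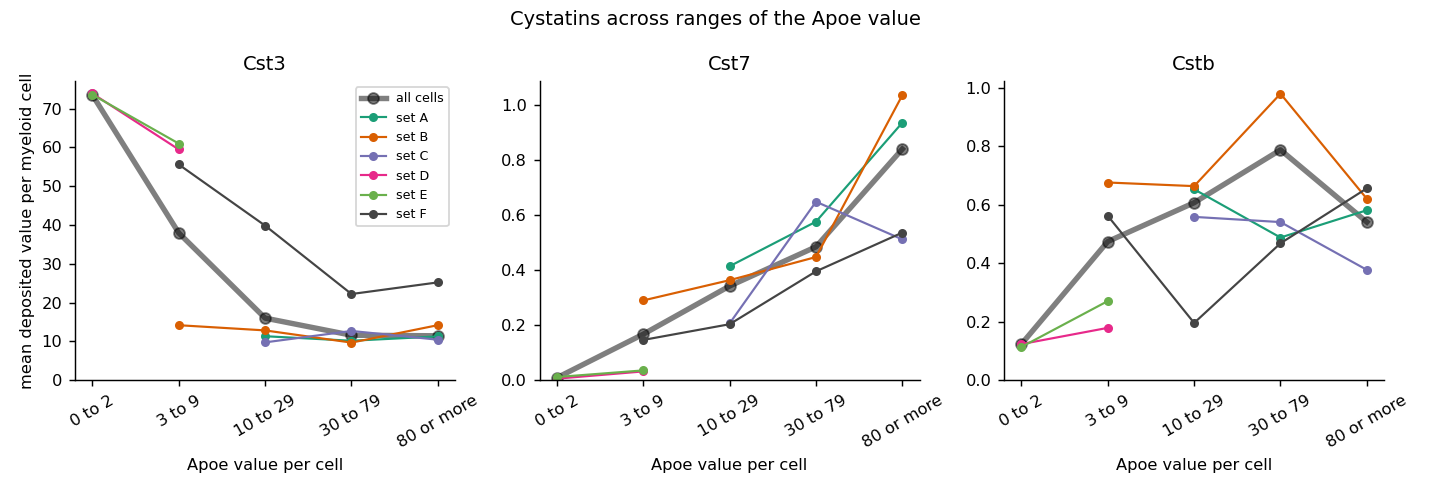
Mean deposited value per myeloid cell (y axis) of Cst3, Cst7 and Cstb in 5 ranges of the Apoe value (x axis), for all cells together (thick line) and for each set with at least 20 cells in the range (thin lines). Sets D and E occupy the 2 lowest ranges and sets A and C the 3 highest, so the pooled Cst3 line from 73.5 to 11.4 joins different sets.

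Only sets B and F held at least 20 cells on each side of the contrast. In set B (2026 high and 210 low cells) Cst3 was 9.74 against 14.0, Cst7 0.455 against 0.286 and Cstb 0.975 against 0.686. No cystatin reached a 2-fold difference there, where 3.46% of 1732 genes were at least 2-fold higher and 13% at least 2-fold lower. In set F (479 high and 52 low cells) Cst3 was 22.8 against 56.5, a 2.47-fold difference, and Cst7 was 0.424 against 0.135, a 3.15-fold difference. In this set 12.3% of 1732 genes were at least 2-fold higher and 23.4% at least 2-fold lower. Cstb was 0.507 in high and 0.577 in low cells of set F, so it did not follow the pooled direction. The direction of Cst3 and Cst7 was the same in both sets and pooled, and their size was smaller within sets. In set B the log2 ratio of Cst3 (-0.523) was near the median of all tested genes (-0.379), and 680 genes were lower. In set F it was -1.31 against a median of -0.353, and 224 genes were lower. Genes higher than Cst7 numbered 127 in set B and 106 in set F. Without sets D and E the log2 ratio of Cst3 moved from -2.53 to -0.97, that of Cst7 from 4.12 to 1.43 and that of Cstb from 1.74 to -0.0408.

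Even at a like Apoe value the sets differed in Cst3. In the range of 30 to 79 it was 10.2 in set A, 9.67 in B and 12.7 in C but 22.2 in F, and in the range of 3 to 9 it was 14.2 in B but 59.5 in D, 61 in E and 55.6 in F. Cst7 differed too, at 0.289 in set B and 0.0316 in D in the range of 3 to 9. In the range of 80 or more Cst7 was 1.03 in B, 0.934 in A, 0.535 in F and 0.511 in C. Apoe ranges therefore did not order the cystatins alike in every set.

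Homeostatic microglial markers went with more Cst3 in 6 of 6 sets. The 8 markers were P2ry12, Tmem119, Siglech, Gpr34, Slc2a5, Cx3cr1, P2ry13 and Olfml3, genes by which resting microglia are told from infiltrating cells. Cells with at least 3 of them above 0 (2779) had a mean Cst3 of 47.7 and cells with none (2655) 10.7, a 4.44-fold difference, where 14.7% of the 1504 genes tested were at least 2-fold higher and 1.73% at least 2-fold lower. Within sets the ratio was 1.43 in A, 2.49 in B, 1.88 in C, 1.21 in D, 1.23 in E and 2.40 in F, below the pooled ratio in every set. Median genes above 0 were 605 in the cells with at least 3 markers and 472 in those with none. The median total was 1054 in marked and 823 in unmarked cells of set D, and 1062 and 816 in set E. The part of this in the ratios within sets was not tested. Among cells of all sets with 450 to 650 genes above 0 the Cst3 ratio was 4.99, and it was not recomputed in this way within sets.

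Cst7 and Cstb had no common direction by homeostatic markers. Pooled Cst7 was 0.302 in cells with at least 3 markers and 0.555 in cells with none, yet in sets A, B and C it was 1.15-fold, 1.27-fold and 1.16-fold higher in the marked cells. The median total of the marked cells was also higher in these sets, 1153 against 998, 1084 against 825 and 961 against 793. In set F Cst7 was 0.262 against 0.479. Pooled Cstb was 0.335 against 0.649. It was level in set A (0.546 against 0.545), lower in the marked cells of B (0.672 against 0.903), C (0.343 against 0.466) and F (0.281 against 0.688), and higher in those of D (0.137 against 0.0286) and E (0.133 against 0.0323), where the unmarked cells hold 1 Cstb-positive cell each. The pooled Cst7 difference was thus not found within the 3 largest sets.

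Crossing both axes gave different patterns for Cst3 and Cst7. At an Apoe value of 30 or more, mean Cst3 was 9.92, 11.3 and 16.0 in cells with 0, with 1 or 2, and with 3 or more homeostatic markers, and below 10 it was 35.2, 60.7 and 71.4. Cst3 increased with the markers in both Apoe groups. Below 10 the increase was smaller within set D (62.6, 70.1 and 73.9) and set E (59.2, 70.6 and 73.7) than in the pooled cells. Cst7 at 30 or more was 0.626, 0.713 and 0.715, and at 10 to 29 it was 0.334, 0.340 and 0.354. Below 10 it was 0.116, 0.0600 and 0.0255 in the pooled cells, a lower level in the cells with more markers. Cst7 thus varied little with the markers at an Apoe value of 10 or more in the pooled cells but not below it, and in set F at 30 or more it was 0.528, 0.427 and 0.351. Below 10, set B held 50 of the 121 cells with no marker and 72 of the 1489 with 3 or more. Cst7 below 10 was 0, 0.0217 and 0.0112 in set E. In set D it was 0.0294, 0.00794 and 0.0066, where the first value rests on 1 cell. The pooled fall below 10 was not seen within sets B and E. Within set B, which holds every combination, Cst3 was 4.52, 11.01 and 24.2 below an Apoe value of 10 and 8.55, 9.51 and 13.3 at 30 or more, and Cst7 was 0.240, 0.307 and 0.292 below 10 and 0.392, 0.469 and 0.516 at 30 or more.

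**Figure D3:**
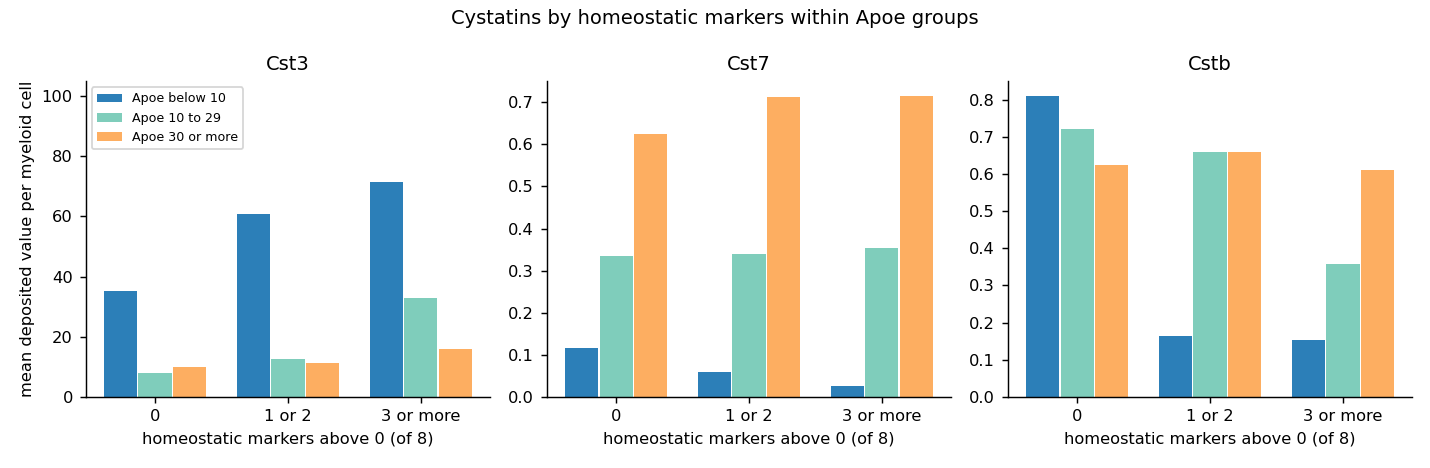
Mean deposited value per myeloid cell (y axis, its range differs between panels) of the 3 cystatins by number of homeostatic markers above 0 (x axis) in cells with Apoe below 10, 10 to 29 and 30 or more (bars), all sets together. Cst3 was highest with low Apoe and 3 or more markers (71.4), Cst7 was highest at Apoe of 30 or more (0.626 to 0.715), and Cstb was high with low Apoe only in cells with no marker (0.810).

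The high Cstb of Apoe-low cells without homeostatic markers came from few cells. These were 121 cells with a mean Cstb of 0.810 and 28.1% above 0, and the 50 of them in set B had a mean of 1.66 with 56.0% above 0. The same 50 cells had the lowest Cst3 of set B in this crossing, 4.52. Their summed value of 6 neutrophil markers was 1.58 against 0.463 over all myeloid cells of set B, and 1 of the 50 had at least 3 of those markers. Their summed value of 8 monocyte markers was 3.14 against 1.48, with 7 cells at 3 markers or more. The part of these markers in the Cstb value was not tested.

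**Figure D4:**
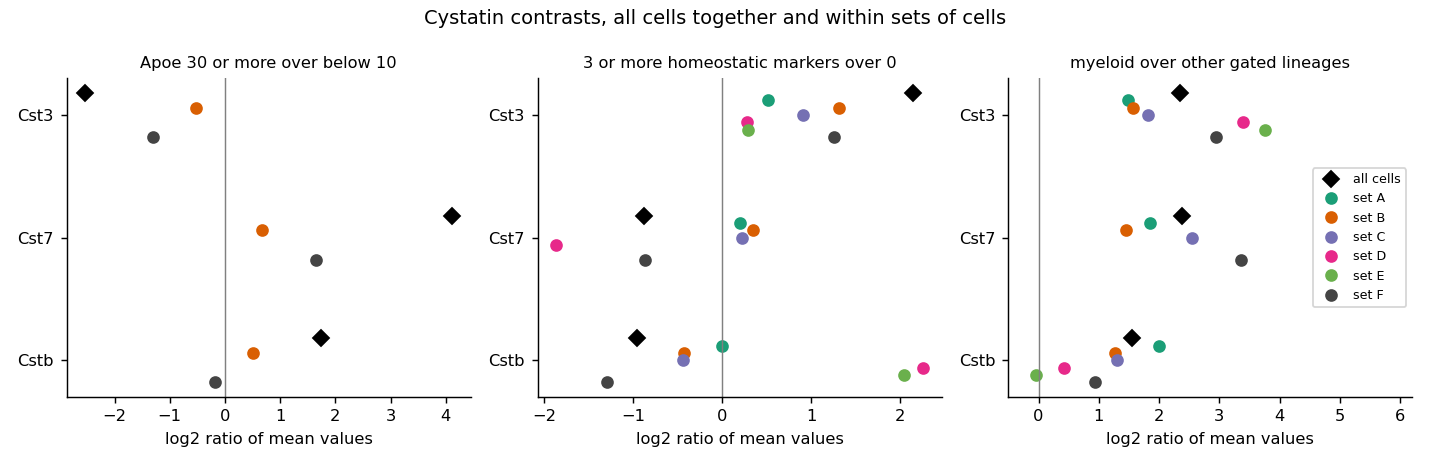
The log2 ratio of mean values (x axis) of Cst3, Cst7 and Cstb in 3 contrasts, for all cells together (diamonds) and for each set with at least 20 cells per group (circles, coloured by set); a set with a mean of 0 in 1 group has no point. Cst3 is below 0 by Apoe and above 0 by homeostatic markers in every set shown, while Cstb lies on both sides of 0 in those 2 contrasts.

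In other myeloid states the cystatins moved apart. Monocyte-marked cells (at least 3 of Arg1, F10, AA467197, Clec4n, Plac8, Chil3, Ccr2 and Ly6c2, 403 cells, 396 of them in set B) were compared within set B with 1110 cells that had none. Cstb was 1.79-fold higher in them, 1.19 against 0.663 and 66.4% against 41.6% of cells, and Cst3 was lower, 9.12 against 13.2. Cst7 was 0.462 against 0.418, a much smaller difference than that of Cstb. The monocyte-marked cells had a median of 648.5 genes above 0, against 503. Cells with at least 3 of 8 disease-associated markers (Spp1, Gpnmb, Itgax, Lpl, Clec7a, Axl, Csf1 and Fabp5) had less Cst3 than cells with none in the 3 sets that allow it, 9.85 against 25.2 in B, 10.3 against 23.5 in C and 22.4 against 47.5 in F. Cst7 was 0.458 against 0.299 in B, 0.593 against 0.5 in C and 0.516 against 0.175 in F. Cstb was 0.996 against 0.276, 0.475 against 0.429 and 0.595 against 0.175 in the same sets. All 3 sets had the same direction for each cystatin, and set C had the smallest differences in Cst7 and Cstb.

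Proliferating myeloid cells of set B (115) had a mean Cstb of 0.435 against 0.871 in cells with no proliferation marker, a Cst3 of 14.8 against 11.03 and a Cst7 of 0.496 against 0.404. Interferon-marked cells of set B (57) had a Cst7 of 0.632 against 0.396, a Cst3 of 13.5 against 10.9 and a Cstb of 0.649 against 0.836. Cstb was therefore lower and Cst3 and Cst7 higher in both states. The marked cells also had more genes above 0, with a median of 740 against 538 for proliferation and 685 against 526 for interferon. The part of Apoe level and of the number of genes in these differences was not tested. Cells marked as border macrophages (6) or dendritic cells (0) were too few to describe.

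Within a set, cells with Cst7 held Cstb more often than cells without. The share with Cstb was 44.3% against 39.7% in set A, 58.7% against 48.0% in B, 30% against 27.6% in C and 42.1% against 24.7% in F. Sets D and E have 9 and 10 cells with Cst7 and were not read. Both genes were more often 0 where few genes were above 0. Of the 1361 cells with fewest genes, 1174 had no Cst7 and 1161 no Cstb, against 835 and 806 of the 1361 with most. The shares of Cstb were not matched on the number of genes, so they do not tell joint expression from this. In set F the share of cells with Cst7 was 26.7%, 28.5%, 30.5%, 19.6% and 13.3% in cells with Cst3 values of 0 to 9, 10 to 19, 20 to 39, 40 to 59 and 60 or more, with a median Apoe value of 27, 59, 68, 19 and 11.5. The share was thus lower only in the 2 highest Cst3 ranges.

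The targets of the cystatins went in both directions by Apoe level. Of 11 cysteine cathepsins and legumain, 8 were tested by Apoe level, 0 were at least 2-fold higher and 2 were at least 2-fold lower in Apoe-high cells, beside 10.4% and 13% of all tested genes, with a median log2 ratio of 0.192 against -0.193 over all tested genes. The lower ones were Ctss (5.76 against 12.7), which is part of the myeloid gate, and Ctsf (0.0611 against 0.157), and legumain (Lgmn), the asparaginyl protease that cystatin C also inhibits, was 0.784 against 1.51. Cathepsin B (Ctsb) was 2.77 against 1.56 and cathepsin Z (Ctsz) 2.16 against 1.18. Cathepsin L (Ctsl) was 1.23 against 1.26. The aspartic protease cathepsin D (Ctsd), which cystatins do not inhibit, was 10.3 against 5.35. In the pooled contrast each of these changed by less than Cst3, Cst7 or Cstb, but not within sets. In set B none of the 7 tested reached a 2-fold difference, beside 3.46% of all tested genes higher and 13% lower. There Ctss was 6.84 against 7.68, and Lgmn (1.45-fold lower) and Ctsd (1.53-fold higher) differed slightly more than Cst3 (1.44-fold) and Cstb (1.42-fold). In set F 1 of 8 was at least 2-fold lower and 0 higher, beside 23.4% and 12.3% of all tested genes: Lgmn was 2.30-fold lower and Ctss 1.75-fold lower, more than the 1.14-fold difference of Cstb. Over all sets the summed cysteine cathepsins and legumain, Ctss included, were 19.5, 18.0, 17.0, 14.5 and 13.7 over the 5 Apoe ranges. Ctss, a gene of the gate, is the largest part of this sum (5.76 in Apoe-high against 12.7 in Apoe-low cells). Ctsb and Ctsz went the other way. The sum was not computed without Ctss, so it does not give the direction of the other targets.

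By homeostatic markers 3 of 8 cysteine cathepsins and legumain were at least 2-fold higher in the marked cells, namely Ctss (11.7 against 5.43), Lgmn (1.60 against 0.689) and Ctsf (0.141 against 0.0478), beside 14.7% of all tested genes, and none was 2-fold lower, beside 1.73%. These pooled differences had the direction of Cst3. Within sets Lgmn was 1.51-fold to 3.70-fold higher and Ctss 1.24-fold to 1.97-fold higher in the marked cells in 6 of 6 sets. Ctsf ran from 0.867-fold in set D to 3.50-fold in set B, with a mean of 0 in the unmarked cells of set E. Ctsb was also higher in 6 of 6 sets, by 1.10-fold to 1.69-fold, though not in the pooled cells (2.33 against 2.49). Ctsd ran from 0.993-fold in set F to 1.43-fold in set E. The median total was higher in the marked cells of every set, and its part in these ratios was not tested. Against other lineages, 7 of 7 were at least 2-fold higher in myeloid cells, beside 13.5% of all tested genes, and none was 2-fold lower, beside 31.2%. Ctss is among these 7, and its difference was set by the gate that divides the groups. Among 15 proteinase inhibitors of other classes, 3 were tested by Apoe level: Wfdc17 was 12.1-fold higher in Apoe-high cells (0.271 against 0.0223), like Cst7, the serpin Serpine2 was lower (0.151 against 0.367), like Cst3, and the metalloproteinase inhibitor Timp2 was 1.03 against 0.638. Within sets the Wfdc17 difference was 3.15-fold in B and 2.28-fold in F, Serpine2 was 1.12-fold and 2.23-fold lower, and Timp2 was 1.39-fold and 1.06-fold higher. Of 26 other genes of the cystatin family only 4 were in the table, with 5 to 17 cells above 0 each (Cst6, Stfa3, Stfa2l1 and Kng2). None of 7 granule protease genes reached the mean of 0.1 needed for the contrast.

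The genes whose levels were most like each cystatin were ranked by Pearson's r of log2(mean + 0.1) over 11 groups, the 6 other lineages and the 5 Apoe ranges, among 2787 genes. These groups come from the same 6 sets, so r is a description and has no p. For Cst3 they included Pros1 (0.967), P2ry12 (0.954), Ltc4s (0.948) and Csf1r (0.936), of which P2ry12 is a homeostatic marker and Csf1r the receptor on which microglia depend. For Cst7 they were Ccl3 (0.955), Clec7a (0.931), Lgals3 (0.921), Wfdc17 (0.920) and Spp1 (0.916). For Cstb they were Cybb (0.915), Csf2ra (0.903), Clec7a (0.903), H2-Eb1 (0.891) and Wfdc17 (0.890). Clec7a and Wfdc17 stood on the lists of both Cst7 and Cstb, and none of the genes given here was shared with Cst3.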

How the data were processed

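Cells of the spinal cord were profiled with the 10x Genomics 3′ protocol. Reads were mapped by the authors to GRCm38 (Ensembl 93) in Cell Ranger 7.1.0, which also counted intronic reads, and cells were then merged and filtered in Seurat 4.3.0.1. The values the authors deposited are in 1 table and were used as a score, since their totals per cell span a narrow range and a value of 1 is rarer than a value of 2 where few genes are above 0. The sequencing depth is therefore unknown, and fold differences are ratios of mean scores. The step from molecule counts to these values is not given in the sources used here.

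Markers, gates and lists were applied to the scores without normalization (Python 3.11.15, numpy 2.4.6, scipy 1.17.1). A contrast covered genes with a mean of at least 0.1 in either group and a call needed a 2-fold difference. Groups under 20 cells were not ranked. Intervals of shares are exact binomial (Clopper-Pearson, 95%), cover counting error only and rest on cells, which are not replicates. The upper limit for 0 cells is 3 cells of the total. No doublet caller was run, and cells that met the myeloid and another gate were kept apart in the comparison of types. The formulas for the ratio of means and for likeness were tried on simulated data in separate code. The code that gave the values here was not itself run on simulated data. The named genes are the 3 members, the detected genes of fixed lists with values for those at a mean of 1 or more in a contrast or singled out for a call, and the 5 most alike genes per member. A gene covered by this rule is not reported here, and the ratio of Cst3 to other myeloid genes was computed without it. Timp2 is above that mean, while Ctsf, Wfdc17, Serpine2 and Lgmn were named for their calls or roles. The members and lists were chosen with earlier results of these data known. Promoter sequences and gene positions are from RefSeq (GRCm38.p6), in which 2 of the 3 members had a promoter entry.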

Additional observations from a re-analysis of the deposited data

How the results depend on the processing

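No paired analysis was possible because no cell could be tied to a library or a replicate number, and no test was run. The 9 log2 ratios (3 cystatins in 3 contrasts) were recomputed in 168 alternatives, of which 132 had the same direction and lay within 1.5-fold of the value in the report, 33 moved further and 3 changed the sign of a difference of at least 2-fold. The sign was kept in 161 of the 168. Those that moved further include changes of sign for Cst7 by homeostatic markers, where the ratio in the report is below 2-fold. The alternatives within single sets, without sets D and E, in cells of 450 to 650 genes, in cells with no other lineage gate and in cells with Apoe of 30 or more were chosen after seeing the data. By Apoe level, the mean of set means gave -1.11 for Cst3, 1.06 for Cst7 and 0.232 for Cstb, cells with no homeostatic marker gave -1.83, 2.44 and -0.376, set B gave -0.523, 0.672 and 0.508, set F gave -1.31, 1.65 and -0.186, and the cells without sets D and E gave -0.969, 1.43 and -0.0408. Apoe values of 0 to 2 against 80 or more gave 6.62 for Cst7. Leaving out each set in turn gave -2.63 to -2.41 for Cst3, 3.33 to 5.82 for Cst7 (lowest without set D, highest without set B) and 1.36 to 1.92 for Cstb. It gave 1.91 to 2.29, -1.32 to -0.44 and -1.31 to -0.678 by homeostatic markers, and 2.09 to 2.64, 2.13 to 2.74 and 1.43 to 1.59 across cell types, in the same order. Cst7 by homeostatic markers was -0.44 without set D and -1.32 without set B. By homeostatic markers, the mean of set means gave 0.541 for Cst3, 0.0446 for Cst7 and -0.335 for Cstb, cells with Apoe below 10 gave 1.02, -2.18 and -2.40, cells with Apoe of 30 or more gave 0.686, 0.192 and -0.0308, and the cells without sets D and E gave 1.17, 0.0735 and -0.304. Set B gave 1.32 for Cst3 and 0.342 for Cst7, and set F 1.26 for Cst3. Across cell types, Cst3 was 2.94 as the mean of set means and 1.73 without sets D and E, and Cst7 was 1.25 with a myeloid gate of at least 12, which moves cells of lower myeloid sums into the other groups. The cause of the other shifts was not tested. The 2 scalings to 10000 per cell, the stated limits on ribosomal and mitochondrial share, the lineage gates and the cells of 450 to 650 genes moved none of the 9 ratios by 1.5-fold.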
